A study of Homo sapiens with 3 samples.

Results

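The genes of oxidative phosphorylation were examined in the mRNA sequencing of a parental hepatocellular carcinoma (HCC) cell line and 2 of its subclones. They were chosen by symbol alone: every listed gene whose symbol began with NDUFA, NDUFB, NDUFC, NDUFS or NDUFV, with COX4 to COX8, with UQCR or with ATP5, together with SDHA, SDHB, SDHC and SDHD. This gave 90 genes of the 16149 listed in at least 1 library. By function 80 of them were subunits (37 of complex I, 4 of complex II, 9 of complex III, 14 of complex IV and 16 of complex V, with the retrocopies UQCRHL and ATP5L2 counted under III and V). The other 10 were matched by symbol but not counted as subunits. They were the complex I assembly factors NDUFAF1, NDUFAF2, NDUFAF3 and NDUFAF4, the genes COX7A2L, COX4NB, ATP5S and ATP5SL, and the readthrough entries ATP5J2-PTCD1 and NDUFC2-KCTD14.

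Oxidative phosphorylation takes place in the inner mitochondrial membrane. Complex I (NADH dehydrogenase) and complex II (succinate dehydrogenase) pass electrons to ubiquinone, complex III hands them to cytochrome c and complex IV (cytochrome c oxidase) to oxygen, and complex V (ATP synthase) uses the proton gradient built on the way to make ATP. Most subunits are encoded in the nucleus and the remainder in mitochondrial DNA, so the complexes are assembled from products of both genomes. In tumour cells this pathway and glycolysis both supply ATP, and several subunits exist as paralogs of which one is restricted to certain tissues or conditions.

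All 3 libraries came from cells cultured in DMEM, with 1 library per cell line. The labels name the line HCCLM3, a human HCC line, for all 3, and describe the parent as having a low ability to metastasize, subclone 1 as having a higher one directed to the lung, and subclone 2 as having a dual one directed to lung and celiac lymph node. The study's methods instead describe the parental line as HCCLM3-R, a derivative of HCCLM3 that expresses red fluorescent protein and has a high metastatic potential, and the subclones as lines grown from single cells of lung or lymph node metastases in nude mice. Which single-cell line was sequenced was not named, and each subclone is 1 clone. The parent is a population and the subclones had passed through mice, so clonal origin, passage and metastatic behaviour cannot be told apart in these libraries. With 1 library per line no difference could be set against the spread between replicates, and no p-value is given.

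The deposited values were RPKM, read numbers corrected for gene length and library size. The steps between the values gave library totals of 4488825, 4609696 and 4725150 reads in the parent, subclone 1 and subclone 2, and whole numbers of reads for all 90 genes. Epithelial keratins were abundant in all 3 libraries, with KRT8 between 1614 and 1742 RPKM and KRT18 between 953 and 1075. The hepatocyte regulator HNF4A stood between 11.7 and 16.0 RPKM, whereas the secreted liver products APOA1, TTR and SERPINA1 lay below 1 RPKM in every library, GPC3 was not listed, and ALB stood at 2.46 RPKM in the parent, against 49.5 in subclone 1 and 68.8 in subclone 2. Other liver products were listed at TF 5.71, 30.3 and 5.88 RPKM, APOB 0.300, 1.23 and 4.17 and AFP 2.41, 4.16 and 4.27 in the parent, subclone 1 and subclone 2. The 11 hepatocyte or HCC markers, of which 10 were listed, summed to 2590 RPKM in the parent, against 2814 in subclone 1 and 2890 in subclone 2. Nearly all of each sum came from KRT8 and KRT18, so it says little about liver products. Among markers of other cells PTPRC was at most 0.0836 RPKM, CDH5 at most 0.0525, VWF at most 0.0504, COL1A1 at most 0.403 and COL1A2 at most 0.0412. The fibroblast list summed to 15.7, 31.1 and 24.3 RPKM in the 3 libraries in the same order (LUM 10.1, 23.99 and 21.0, DCN 0.773, 4.42 and 2.75, and COL3A1 4.42, 2.21 and 0.463), the leukocyte list to 75.5, 113 and 99.6 (nearly all from CD68, a lysosomal protein), and the endothelial list to 3.38, 9.89 and 4.49 (nearly all from PECAM1). Their part in the results was not tested. In bulk RNA, fewer cells of a kind and less RNA per cell cannot be told apart.

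Of the 90 genes, 85 had a mean of at least 1 RPKM over the 3 libraries, among 11370 genes that did. The median of their mean levels was 52.7 RPKM, against 11.1 RPKM for all 11370 genes, and 82 of the 85 lay above the latter. Their mean levels ran from 2.83 to 481 RPKM, and the reads behind a single value from 20 to 4400. Genes of the pathway were thus measured at high levels in all 3 lines, and 86 of the 90 were listed in every library.

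ATP5B, the catalytic beta subunit of ATP synthase, was the most abundant, with 477 RPKM in the parent, against 463 in subclone 1 and 501 in subclone 2. COX7B, a small subunit of cytochrome c oxidase, followed with 404, 454 and 455 RPKM, then COX6A1 of the same complex with 324, 332 and 417, and ATP5J2, the f subunit of ATP synthase, with 305, 329 and 329. In complex I the leading genes were NDUFB9, an accessory subunit of the membrane arm, with 206, 181 and 184 RPKM, and NDUFV2, an iron-sulphur protein of the NADH-oxidizing module, with 151, 179.9 and 219. At the low end of complex I were NDUFA10 with 14.1, 11.5 and 11.1 RPKM and NDUFA11 with 8.46, 8.82 and 9.48. In complex III, UQCRFS1, the Rieske iron-sulphur protein, had 130.3, 124 and 129.5 RPKM and UQCRC2, a core protein, 108, 109.9 and 112. Levels of subunits within complexes I, IV and V thus spread over more than an order of magnitude.

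The 4 subunits of succinate dehydrogenase, the enzyme shared by the citric acid cycle and the respiratory chain, split into pairs of similar level. SDHB, the iron-sulphur subunit, had 83.5, 71.9 and 78.7 RPKM and SDHD, a membrane anchor, 73.7, 83.0 and 85.1. SDHA, the flavoprotein with the succinate site, had 27.0, 30.7 and 33.6 RPKM and SDHC, the other anchor, 24.8, 26.04 and 25.3. In the parent the counting intervals of SDHB and SDHD overlapped (75.8 to 91.7 and 67.1 to 80.7 RPKM), as did those of SDHA and SDHC (23.9 to 30.2 and 22.1 to 27.7), whereas in subclone 2 SDHA (30.3 to 37.2) lay above SDHC (22.7 to 28.2).

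The remaining 5 genes lay below 1 RPKM and are accounted for by their reads. ATP5L2, a retrocopy of the g subunit, had 1 read in each library. COX6B2, the testis paralog of COX6B1, had 0 reads in the parent, against 3 in subclone 1 and 4 in subclone 2. UQCRHL, a retrocopy of UQCRH, and the readthrough entry ATP5J2-PTCD1 each had 1 read in subclone 1 and 0 in the other two libraries, and NDUFC2-KCTD14 had 1 read in subclone 2 and 0 elsewhere. The interval of the fold of COX6B2 in subclone 2 over the parent reached down to 0.627 and so held 1, and the other 4 had no value above the 3 reads that a count of 0 allows, so differences in these genes were not detectable at this depth.

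Of the paralogs known from particular tissues, COX4I2, COX6A2, COX7A1 and COX8C were not listed in any library, and their ubiquitous partners COX4I1 (129, 135 and 147 RPKM in the parent, subclone 1 and subclone 2), COX6A1, COX7A2 and COX8A (130.4, 149 and 139.7) were. COX6B1 held 100, 99.8 and 99.8% of the summed RPKM of COX6B1 and COX6B2, with 217, 219.5 and 217 RPKM. The 3 genes for the c subunit of ATP synthase, which code for the same mature protein, were used unequally: ATP5G2 made up 72.0, 72.6 and 71.6% of their summed RPKM, ATP5G1 19.2, 18.9 and 21.9% and ATP5G3 8.80, 8.51 and 6.51%. Several of these genes have retrocopies or near-identical relatives elsewhere in the genome. How the authors counted reads that match more than 1 gene was not given in the sources used here, so the levels of such genes are uncertain to that extent. No subunit encoded in mitochondrial DNA was found under the 26 symbols searched, so products of that genome could not be set beside those of the nucleus.

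**Figure D1:**
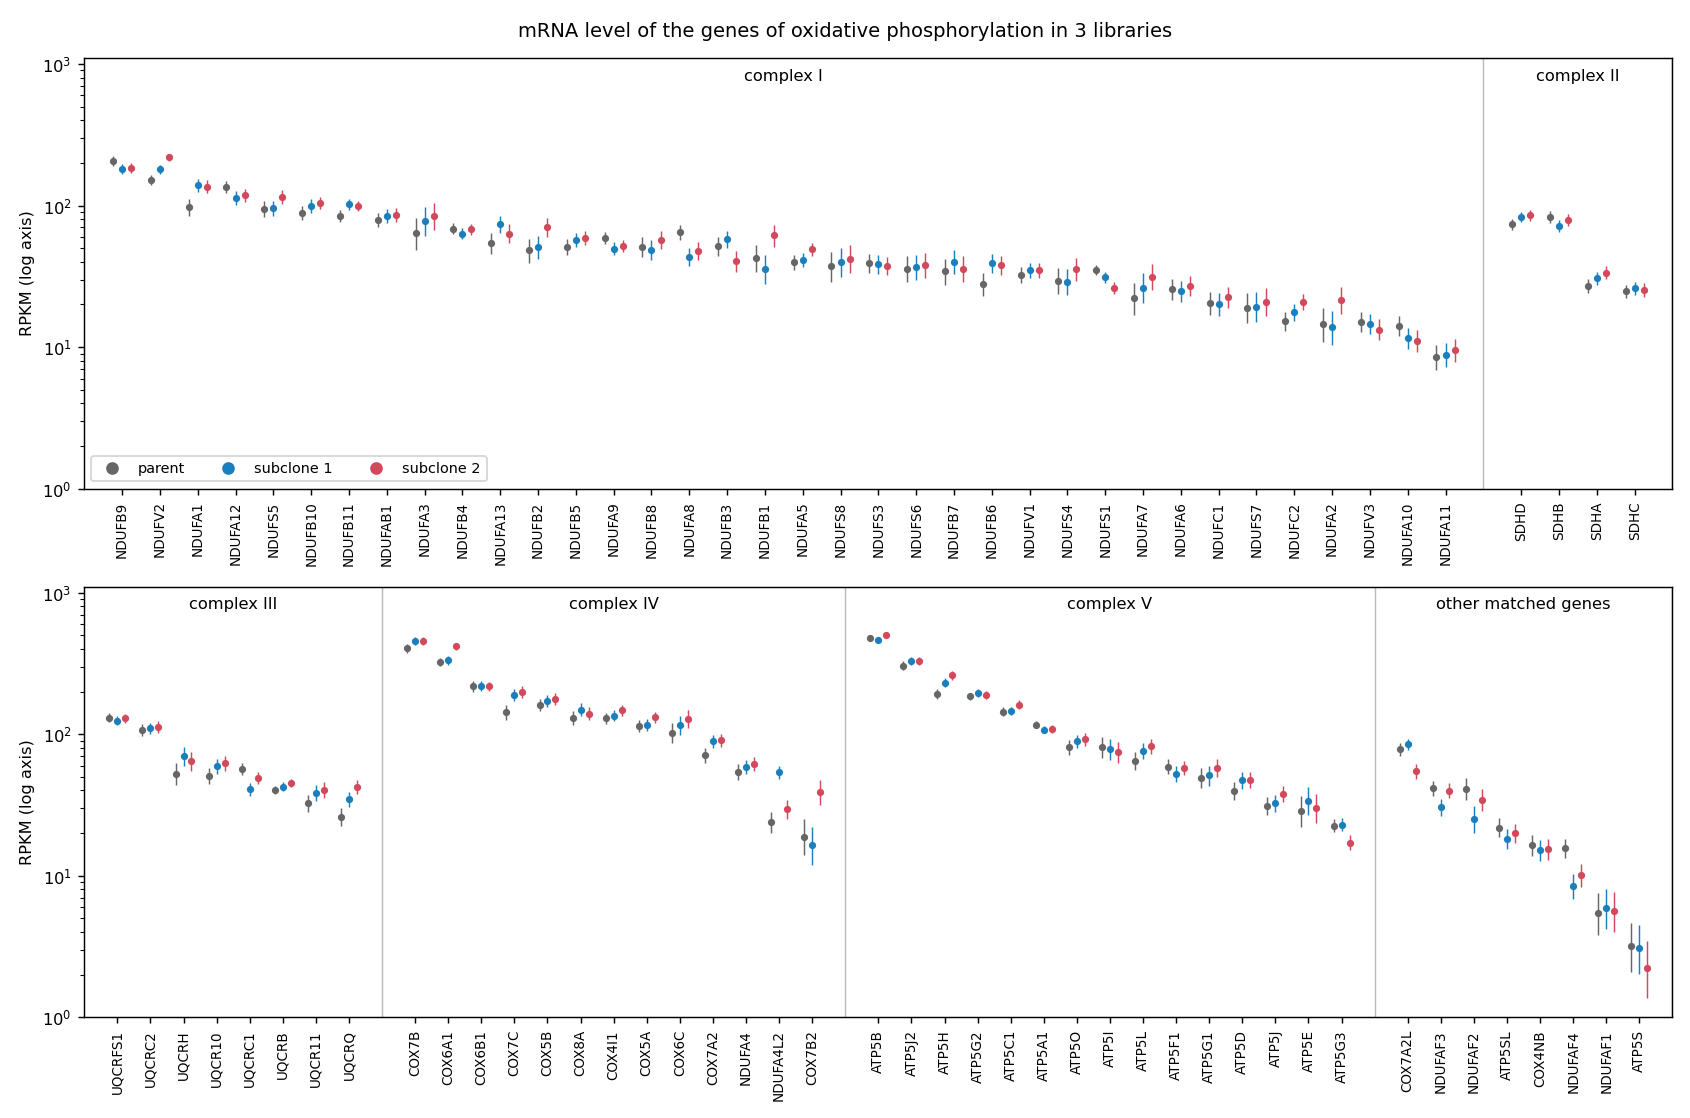
Level of genes of oxidative phosphorylation with a mean of at least 1 RPKM, as RPKM on a log axis, for the parent (grey), subclone 1 (blue) and subclone 2 (red), grouped by complex. Points are single libraries and vertical lines are exact 95% counting intervals. The 3 points of most genes lie close together, the subunits between 8.46 and 501 RPKM, and NDUFA4L2, COX7B2 and NDUFAF4 stand apart.

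The windows before the start sites of these genes were read to show what they share in sequence, which the choice by symbol did not use. NRF1 (nuclear respiratory factor 1) and the ETS-family factor GABP (also called NRF2) are known to act at promoters of respiratory chain genes. Of the 85 genes, 72 had a window in the RefSeq table of GRCh38.p14, and 250 bases upstream of the start were searched on both strands. A gene was counted if any of its windows matched, so a share of all windows is in another unit than a share of genes. The NRF1 letters (GCGCA, any base, GCGC) were found for 13 genes (18.1%). They were found for 12.8% of 9235 genes with a window and a mean of at least 1 RPKM, and in 5.07% of all 35116 windows. The ETS letters CCGGAAG were found for 19 genes (26.4%), against 20.2 and 8.52%. The letters ACGTG, a form of the core of the hypoxia response element, were found for 16 genes (22.2%), against 29.3 and 18.5%. No other form was searched for. For both respiratory motifs the share was above that of the 9235 genes, which include the 72, and for ACGTG it was below. These shares rest on only 13, 19 and 16 genes, and no test was made. A match is a description of letters and not of binding.

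The 6 windows of 200 bases that follow, ending at the base before the start site and written 5′ to 3′ along the gene, show the range, from SDHA with 4 matches of the NRF1 letters and UQCR11, a small subunit of complex III, with 2 of each kind, through UQCRQ and NDUFAF4 with 1 ETS match each, to NDUFA4L2 and COX7B2 with none. The last 4 are shown because they were among the genes with the largest ratios, described below. Capitals mark the NRF1 and ETS letters on either strand, and no marked match overlaps another. Coordinates are of GRCh38.p14, and NDUFA4L2, listed there as COXFA4L2, has 2 start sites of which the first in the table is shown.
SDHA (chr5:218120-218319, plus strand): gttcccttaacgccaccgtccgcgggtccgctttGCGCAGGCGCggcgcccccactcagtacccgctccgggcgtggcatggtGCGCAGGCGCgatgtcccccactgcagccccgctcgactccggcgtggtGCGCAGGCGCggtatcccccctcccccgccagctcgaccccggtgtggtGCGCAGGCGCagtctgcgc
UQCR11 (chr19:1605463-1605662, minus strand): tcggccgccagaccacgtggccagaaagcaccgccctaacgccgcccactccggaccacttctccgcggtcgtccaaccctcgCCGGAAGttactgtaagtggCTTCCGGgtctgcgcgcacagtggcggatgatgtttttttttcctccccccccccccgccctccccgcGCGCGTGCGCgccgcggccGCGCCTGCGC
UQCRQ (chr5:132866442-132866641, plus strand): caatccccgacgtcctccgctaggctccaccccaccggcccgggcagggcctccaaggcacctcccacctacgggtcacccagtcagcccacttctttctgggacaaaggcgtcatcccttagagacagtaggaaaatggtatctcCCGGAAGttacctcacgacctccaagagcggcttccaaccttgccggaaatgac
NDUFAF4 (chr6:96897892-96898091, minus strand): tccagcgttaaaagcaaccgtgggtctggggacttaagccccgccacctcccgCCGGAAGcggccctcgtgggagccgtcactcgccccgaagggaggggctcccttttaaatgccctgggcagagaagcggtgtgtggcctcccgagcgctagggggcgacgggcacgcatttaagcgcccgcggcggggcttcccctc
NDUFA4L2 (chr12:57240763-57240962, minus strand): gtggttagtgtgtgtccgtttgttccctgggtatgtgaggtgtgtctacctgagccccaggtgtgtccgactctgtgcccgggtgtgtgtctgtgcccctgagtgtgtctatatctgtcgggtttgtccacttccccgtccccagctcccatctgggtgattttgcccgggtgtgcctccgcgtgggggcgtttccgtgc
COX7B2 (chr4:46909246-46909445, minus strand): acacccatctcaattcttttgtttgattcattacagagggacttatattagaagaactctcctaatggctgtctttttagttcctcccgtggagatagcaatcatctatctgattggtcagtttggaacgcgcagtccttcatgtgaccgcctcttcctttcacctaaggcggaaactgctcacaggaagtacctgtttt

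The lines were then compared gene by gene. A log2 ratio is log2 of (RPKM + 0.1) in one library over the same in another, which understates changes of low genes, and a fold is a ratio of RPKM with its exact 95% interval from the reads. That interval covers counting error only and compares libraries, not cell lines. The comparisons of subclone 1 and of subclone 2 with the parent share the parent library, so a value that is off in the parent moves both.

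Between the parent and subclone 1 the pathway differed little. One of the 85 genes, NDUFA4L2, exceeded the parent at least 2-fold in subclone 1 (4.9% of all 11370 genes were) and none was at least 2-fold lower (1.82% of all genes). At 1.5-fold NDUFA4L2 was still the only higher gene (11.6% of all genes), and the assembly factors NDUFAF2 and NDUFAF4 were lower (7.46%). The median log2 ratio was 0.06, beside 0.00 for all genes, with 56 genes higher and 29 lower. Counting intervals lay above 1 for 12 genes (19.7% of all genes) and below 1 for 9 (18.9%). The shares of genes past either fold were thus below those of all genes, many of which have lower levels. The ratios had an SD of 0.27, against 0.64 for all genes and 0.41 for the 1658 genes whose mean level fell within the interquartile range of the 85. Of those 1658, 100 were higher and 69 lower at 1.5-fold, and 438 had an interval above 1 and 506 below.

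NDUFA4L2 encodes a paralog of the complex IV subunit NDUFA4 and is known as a gene induced in hypoxia. It had 23.9 RPKM in the parent (137 reads), against 53.6 in subclone 1 (315 reads) and 29.4 in subclone 2 (177 reads). Subclone 1 was the high library, 2.24-fold above the parent (1.83 to 2.76), and the interval of subclone 2 over the parent, 0.976 to 1.55, held 1. NDUFA4 itself had 54.1, 58.8 and 61.7 RPKM, which left its intervals overlapping across the 3 libraries. NDUFA4L2 therefore made up 30.7, 47.7 and 32.3% of the summed RPKM of the pair. The letters ACGTG were not found in the 250 bases searched before its first listed start, which take in the window printed above. That window does hold the letters GCGTG, which were not searched for. A part of hypoxia in the level of this gene was not tested.

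The next largest ratios in subclone 1 were lower ones, and the lowest 2 were those of complex I assembly factors. NDUFAF4, which acts with NDUFAF3 early in complex I assembly, had 15.6 RPKM in the parent, against 8.46 in subclone 1 and 10.1 in subclone 2, so that the parent was the high library. The fold over the parent was 0.542 (0.416 to 0.701) in subclone 1 and 0.646 (0.506 to 0.824) in subclone 2. NDUFAF2, an assembly factor that joins late, had 41.2, 25.04 and 34.4 RPKM, and its fold in subclone 1 was 0.608 (0.456 to 0.805). NDUFAF3 had 41.6, 30.3 and 39.8 RPKM, with a fold of 0.729 (0.602 to 0.882) in subclone 1, where it was lowest. NDUFAF1, the fourth of these factors, had 5.44, 5.89 and 5.6 RPKM and its intervals in the 3 libraries overlapped. The median log2 ratio of these 4 factors was -0.59 in subclone 1 and -0.16 in subclone 2, beside medians of 0.05 and 0.16 for the 37 complex I subunits. They are only the assembly factors that the symbols matched. The 32 assembly factors listed under other symbols with a mean of at least 1 RPKM had medians of -0.08 and -0.002.

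**Figure D2:**
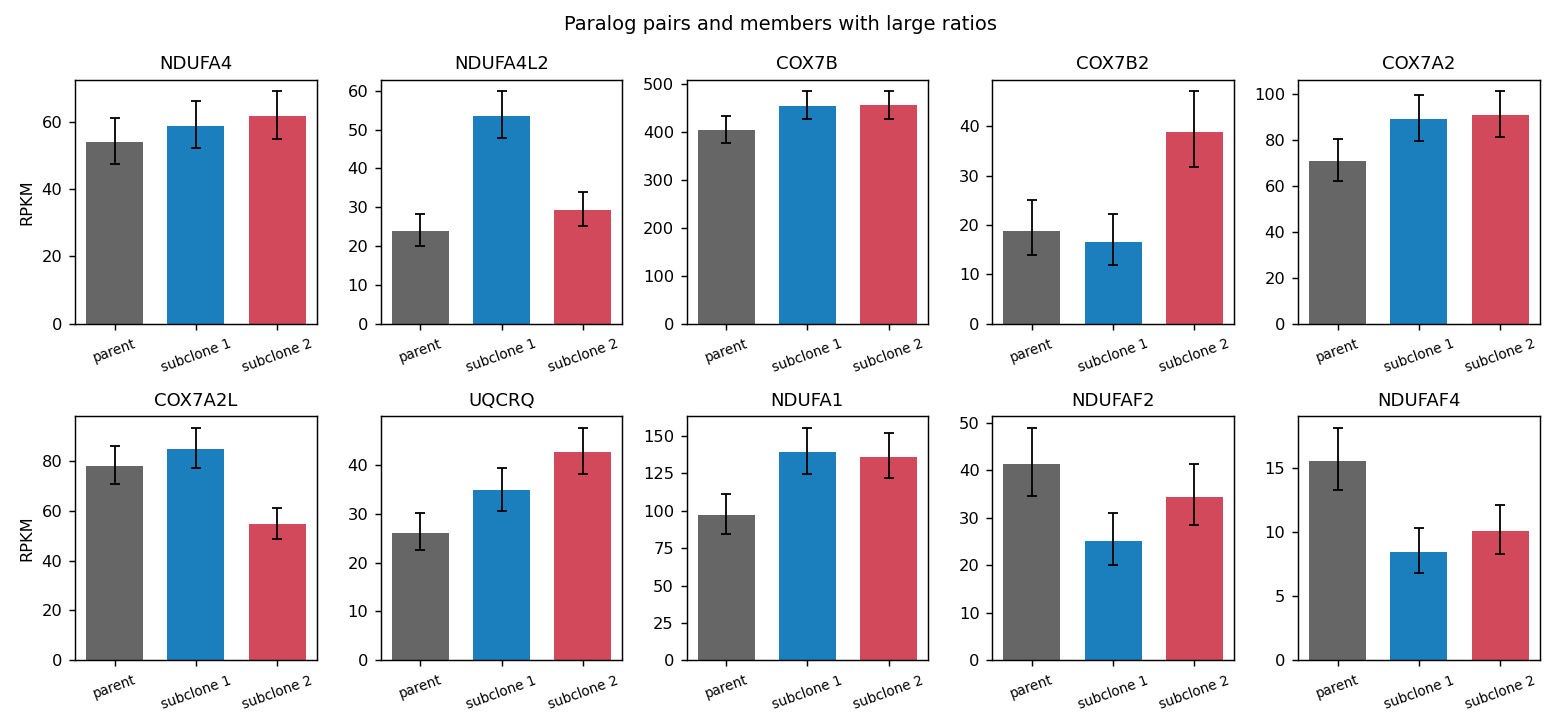
RPKM of paralog pairs and of genes with large ratios in the parent (grey), subclone 1 (blue) and subclone 2 (red). Bars are single libraries from 0 and vertical lines are exact 95% counting intervals. NDUFA4L2 is highest in subclone 1 (53.6 RPKM), COX7B2 in subclone 2 (38.9 RPKM), COX7A2L is lowest in subclone 2 (54.5 RPKM), and NDUFAF4 is highest in the parent (15.6 RPKM).

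Among the structural subunits in subclone 1, NDUFA8 and UQCRC1 were the lowest against the parent. NDUFA8, an accessory subunit of complex I, had 64.8, 43.4 and 47.8 RPKM in the parent, subclone 1 and subclone 2, and UQCRC1, a core protein of complex III, 57.2, 40.7 and 49.0. The folds in subclone 1 were 0.670 (0.548 to 0.817) and 0.712 (0.612 to 0.827). In the other direction NDUFA1, a small X-linked subunit needed for complex I assembly, had 97.2, 139 and 136 RPKM. Both subclones were above the parent at this gene, with folds of 1.43 (1.20 to 1.71) and 1.40 (1.18 to 1.67).

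Between the parent and subclone 2 the genes stood slightly higher. One gene, COX7B2, was at least 2-fold higher (5.33% of all genes) and none was at least 2-fold lower (2.16%). At 1.5-fold COX7B2 and UQCRQ were higher (12.7% of all genes) and NDUFAF4 was lower (7.3%). The median log2 ratio was 0.16, beside 0.04 for all genes, with 60 genes higher and 25 lower. Counting intervals lay above 1 for 31 genes, or 36.5% (22.5% of all genes), and below 1 for 9 (17.7%). These genes have more reads than most and hence narrower intervals. Among the 1658 genes of similar level, 497 had an interval above 1 and 475 below.

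COX7B2 is a paralog of COX7B best known from testis. Its level was 18.9 RPKM in the parent (48 reads), against 16.5 in subclone 1 (43 reads) and 38.9 in subclone 2 (104 reads). Subclone 2 was the high library and the other two overlapped, with folds of 2.06 (1.45 to 2.96) over the parent and 2.36 (1.64 to 3.45) over subclone 1. COX7B remained the main form, and COX7B2 made up 4.47, 3.50 and 7.88% of the summed RPKM of the pair. The window of COX7B2 printed above was the poorest in G and C of the 6, at 43.5%, against 75% for SDHA.

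UQCRQ, the ubiquinone-binding small subunit of complex III, had 26.1 RPKM in the parent, against 34.8 in subclone 1 and 42.6 in subclone 2. The 3 intervals were 22.5 to 30.2, 30.6 to 39.3 and 38.05 to 47.5 RPKM, so the parent overlapped neither subclone. The fold of subclone 2 over the parent was 1.63 (1.36 to 1.96). Other complex III subunits differed less, with UQCR11 at 32.5, 38.3 and 40.4 RPKM and UQCRH, the hinge protein, at 52.6, 69.5 and 64.7. Cytochrome c1 (CYC1), the electron-carrying subunit that the choice by symbol left out, had 123, 102 and 112 RPKM.

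In complex I the larger ratios of subclone 2 over the parent were in small subunits and in NDUFV2. NDUFA2, an accessory subunit of the NADH-oxidizing module, had 14.5, 13.8 and 21.5 RPKM from 54 to 86 reads. NDUFB1 had 42.7, 35.6 and 61.6 RPKM and NDUFB2 48.1, 50.7 and 70.3, both accessory subunits of the membrane arm. At each of these 3 genes subclone 2 was the high library, with folds over the parent of 1.49 (1.05 to 2.12), 1.44 (1.08 to 1.93) and 1.46 (1.14 to 1.87). NDUFV2 was 1.45-fold higher (1.31 to 1.60), and its 3 intervals did not overlap.

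The core subunits of complex I carry out its electron transfer and proton pumping, and those described here differed in direction. While NDUFV2 was highest in subclone 2, NDUFS1, the largest subunit, had 35.0, 31.1 and 26.3 RPKM in the parent, subclone 1 and subclone 2. Levels of NDUFS3 (39.2, 38.4 and 37.5 RPKM), NDUFS7 (19.0, 19.3 and 20.9), NDUFS8 (37.3, 40.0 and 42.1) and NDUFV1 (32.4, 35.0 and 34.8) overlapped in their intervals across all 3 libraries.

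By complex, the median log2 ratios of subclone 2 over the parent were 0.16 for complex I, 0.12 for complex II, 0.22 for complex III, 0.20 for complex IV and 0.11 for complex V. Those of subclone 1 over the parent were 0.05, 0.12, 0.15, 0.12 and 0.06. Complex IV was the most uniform in direction, with 12 of its 13 genes above the parent in each subclone (50.4% of all genes in subclone 1 and 53.5% in subclone 2). COX7B2 was the lower one in subclone 1 and COX6B1 (a log2 ratio of -0.00) in subclone 2. The sizes of the complex IV ratios varied, with an SD of 0.33 in subclone 1, the largest of complexes I to V, and 0.26 in subclone 2. Intervals above 1 were found for 4 of the 13 in subclone 1 (19.7% of all genes) and for 8 in subclone 2 (22.5%), and none lay below 1. Of the 1658 genes chosen by the level of the 85, 438 and 497 had one. Those 1658 are not matched to complex IV, which lay higher, with a median of 129 RPKM in the parent against 51.3 for the 85. Among the 8, COX7C, a small subunit, had 143, 188 and 199 RPKM, COX7A2 70.8, 88.9 and 90.7, and COX6A1 had a fold of subclone 2 over the parent of 1.29 (1.17 to 1.41). In complex V the peripheral stalk subunit ATP5H had 192, 231 and 261 RPKM, with folds of 1.20 (1.07 to 1.35) and 1.36 (1.22 to 1.52). COX7C and ATP5H were named after their values were seen. The direction of such small medians depends on the scaling: after division by ACTB the median of the 85 genes in subclone 1 over the parent was -0.07 and that of all genes -0.13.

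The summed share of the pathway can be read without a ratio. The 90 genes held 0.646% of the reads of the parent (exact 95% interval 0.638 to 0.653%), 0.663% in subclone 1 (0.656 to 0.671%) and 0.697% in subclone 2 (0.690 to 0.705%), or 1.62, 1.69 and 1.78% of the listed RPKM. The intervals of subclone 2 and the parent did not overlap, and those of subclone 1 and the parent did not either. Complex IV went from 0.109% of reads in the parent to 0.122% in subclone 1 and 0.128% in subclone 2, and complex I from 0.186 to 0.190 and 0.201%. The 10 other genes summed went the opposite way, from 0.0300 to 0.0255 and 0.0245%. COX7A2L alone held 401, 448 and 295 of their 1345, 1175 and 1159 reads, so their sum depends much on this gene.

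**Figure D3:**
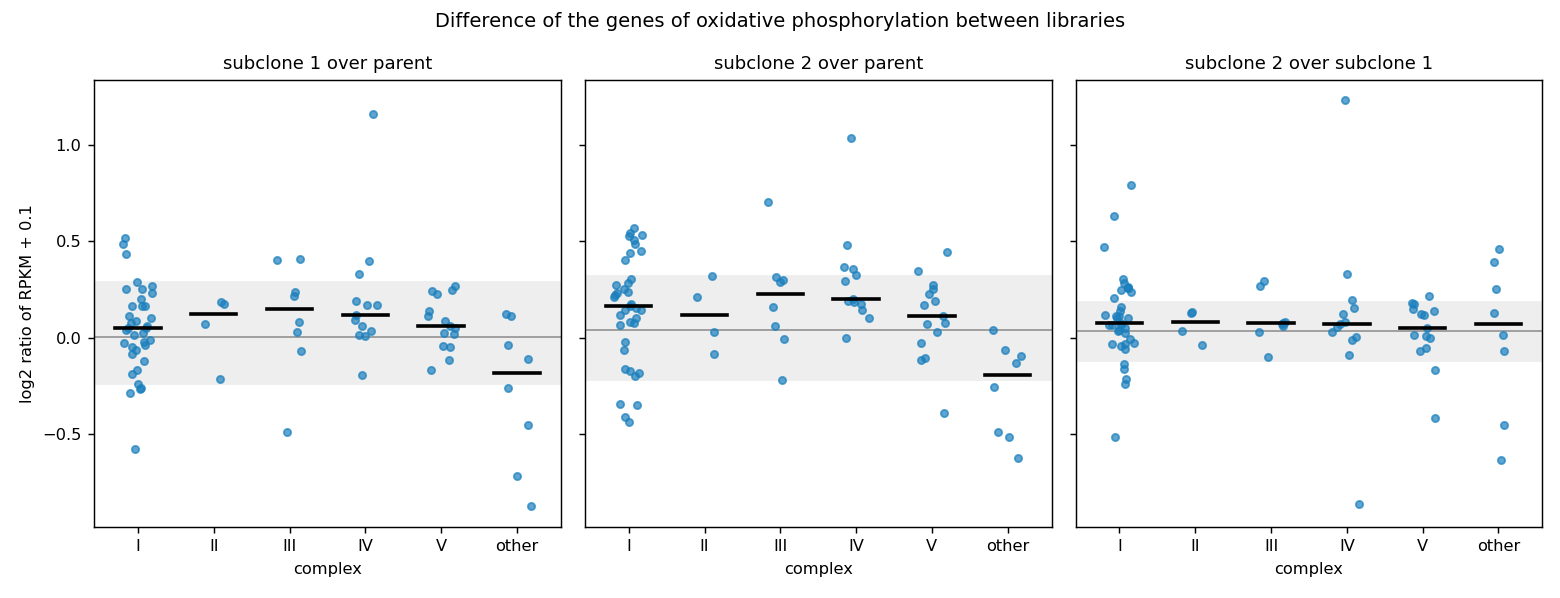
Log2 ratio of (RPKM + 0.1) for each of the 85 genes by complex, in 3 comparisons. Points are genes, short black lines are medians of each complex, the grey line is the median of all 11370 genes and the shaded band their interquartile range. Medians of complexes I to V lie between 0.05 and 0.22 in the comparisons with the parent, and the group of other genes lies lower, at -0.18 and -0.20.

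Between the subclones, COX7B2 alone exceeded subclone 1 at least 2-fold in subclone 2 (1.42% of all genes) and none was at least 2-fold lower (1.39%). At 1.5-fold COX7B2, NDUFA2 and NDUFB1 were higher (4.75%), and NDUFA4L2 and COX7A2L were lower (4.11%). Low genes raise the shares of all genes: of the 1658 genes of similar level only 21 were higher and 14 lower at 1.5-fold. The ratios of the 85 genes had an SD of 0.27, against 0.44 for all genes and 0.22 for those 1658. The folds were 1.55 (1.09 to 2.23) for NDUFA2, 1.73 (1.28 to 2.35) for NDUFB1 and 0.548 (0.453 to 0.661) for NDUFA4L2. The median log2 ratio was 0.07, beside 0.03 for all genes. Counting intervals lay above 1 for 17 genes (11.4% of all genes) and below 1 for 5 (8.32%). Those 5 were NDUFA4L2, COX7A2L, ATP5G3, NDUFB3 and NDUFS1, of which all but NDUFA4L2 lie on chromosome 2.

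COX7A2L, a relative of COX7A2 known for linking complexes III and IV in supercomplexes, had 78.0 RPKM in the parent, against 84.9 in subclone 1 and 54.5 in subclone 2. Subclone 2 was the low library, 0.699-fold of the parent (0.599 to 0.814) and 0.642-fold of subclone 1 (0.553 to 0.746). COX7A2, the subunit proper, was higher in both subclones, and the share of COX7A2L in the summed RPKM of the 2 genes was 52.4, 48.8 and 37.6%. NDUFB3, a membrane arm subunit of complex I, had 51.5, 57.8 and 40.4 RPKM, with folds of subclone 2 of 0.785 (0.626 to 0.982) over the parent and 0.700 (0.562 to 0.869) over subclone 1. ATP5G3 had 22.6, 23.0 and 17.2 RPKM, with folds of 0.760 (0.645 to 0.895) and 0.747 (0.635 to 0.878). NDUFS1 had folds of 0.751 (0.661 to 0.854) and 0.844 (0.740 to 0.962).

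These genes lie on a chromosome whose genes stood lower as a whole in subclone 2. Of the 85 genes, 6 lie on chromosome 2, and their median log2 ratio of subclone 2 over the parent was -0.37. The other 733 genes of that chromosome with a mean of at least 1 RPKM had a median of -0.30, and 76.8% of them were below 0. In subclone 1 over the parent the medians were 0.06 for the 6 genes and -0.13 for the 733. Of the 6, 5 stood below the parent in subclone 2. NDUFA10 was among them at a fold of 0.786 (0.617 to 0.998), and the sixth, COX5B, had 161, 171 and 178 RPKM.

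Nearby genes were used to place each value, as the median of up to 25 genes on either side in the order of the RefSeq table. For subclone 2 over the parent the log2 ratios were -0.52 for COX7A2L beside -0.32 for its neighbours, -0.39 for ATP5G3 beside -0.53, -0.35 for NDUFB3 beside -0.43, -0.41 for NDUFS1 beside -0.39 and -0.35 for NDUFA10 beside -0.30. COX5B had 0.15 beside -0.08. Between the subclones the values were -0.64 beside -0.21 for COX7A2L, -0.42 beside -0.22 for ATP5G3 and -0.51 beside -0.23 for NDUFB3. NDUFS1 had -0.24 beside -0.24, NDUFA10 -0.06 beside -0.31 and COX5B 0.06 beside -0.05. COX7A2L, ATP5G3 and NDUFB3 had 0.12, 0.02 and 0.17 in subclone 1 over the parent, beside -0.10, -0.31 and -0.15. There NDUFS1, NDUFA10 and COX5B had -0.17, -0.29 and 0.09, beside -0.12, -0.04 and -0.06. In subclone 1 over the parent UQCRC1 and NDUFAF3 on chromosome 3 had -0.49 and -0.45, and their neighbours -0.39 for both. By contrast the neighbours of NDUFA4L2 stood at 0.08 in subclone 1 over the parent, against 1.16 for the gene, and those of COX7B2 at 0.03 in subclone 2 over the parent, against 1.04. For NDUFAF4 the values were -0.88 and -0.09 in subclone 1, and for UQCRQ 0.70 and 0.07 in subclone 2. Over the 85 genes, Pearson's r between a gene and the median of its neighbours was 0.27 for subclone 1 over the parent, 0.45 for subclone 2 over the parent and 0.40 between the subclones. This is a description across genes of the same libraries, which are not independent replicates. Gene copy number was not measured here, and its part was not tested.

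**Figure D4:**
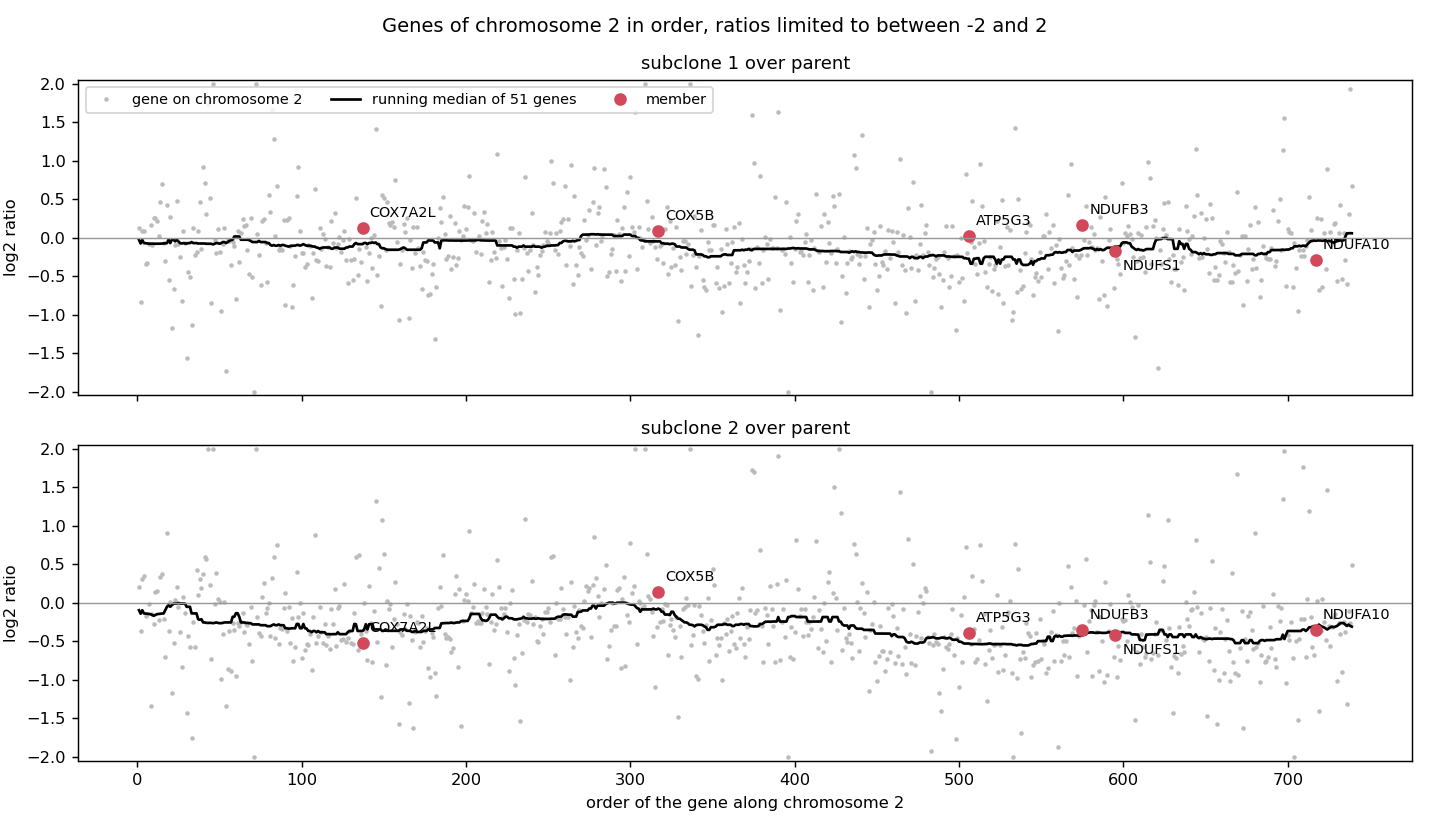
Log2 ratio of (RPKM + 0.1) of the genes of chromosome 2 in their order along it, for subclone 1 over the parent (top) and subclone 2 over the parent (bottom), limited to between -2 and 2. Grey points are genes, the black line is the running median of 51 genes and red points are the 6 genes of oxidative phosphorylation. In the bottom panel 5 of the 6 red points lie between -0.52 and -0.35, near the running median, and COX5B lies at 0.15.

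The rest of the pathway was taken from a list by function that holds subunits under other symbols, assembly factors, the electron transfer flavoprotein and regulators of mitochondrial biogenesis. Outside mitochondrial DNA 53 of its genes were listed and 51 had a mean of at least 1 RPKM. None was at least 2-fold higher or lower in any of the 3 comparisons. At 1.5-fold 3 of the 51 stood below the parent in subclone 1 (7.46% of all genes), and in subclone 2 over the parent 1 was higher (12.7%) and 5 were lower (7.3%). Between the subclones 1 was lower (4.11%), and the median log2 ratios of the 51 genes were -0.09, -0.02 and 0.08 in the 3 comparisons.

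The 3 that were lower in subclone 1 were TFAM, which packages and transcribes mitochondrial DNA, PPRC1, a coactivator of NRF1, and COX11, which inserts copper into complex IV. TFAM had 31.4, 20.6 and 22.3 RPKM, PPRC1 17.4, 10.7 and 10.9, and COX11 31.7, 20.1 and 28.4. In TFAM and PPRC1 the parent was the high library against both subclones, with folds in subclone 1 of 0.656 (0.541 to 0.794) and 0.617 (0.527 to 0.722). The 5 that were lower in subclone 2 were PPRC1, TFB1M, which methylates mitochondrial ribosomal RNA, FAM36A, an assembly factor of complex IV, BCS1L, which inserts the Rieske protein into complex III, and LRPPRC, which stabilizes mitochondrial mRNA. BCS1L and LRPPRC lie on chromosome 2. FAM36A rested on 14 reads in the parent and 9 in subclone 2, and the interval of its fold of 0.611 (0.233 to 1.51) held 1. LRPPRC had 75.7, 57.6 and 44.5 RPKM from 1395 or more reads, a fold of 0.588 (0.549 to 0.629) in subclone 2, and TFB1M had 3.87, 3.16 and 2.03. The higher one was COX19, a copper-handling factor of complex IV, with 3.05, 4.61 and 5.19 RPKM.

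CYCS, cytochrome c itself, had 74.4, 61.9 and 65.3 RPKM. The parent was the high library, with folds of 0.832 (0.778 to 0.891) in subclone 1 and 0.878 (0.821 to 0.938) in subclone 2. NRF1, the transcription factor, had 4.91, 5.33 and 4.78 RPKM, while PPARGC1A, the best known coactivator of mitochondrial biogenesis, was not listed in any library. PPRC1, COX11, LRPPRC, BCS1L, TFB1M, FAM36A and COX19 were named after their values were seen, as the genes behind counts of 5 or fewer.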

How the data were processed

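Cultured cells of the parent, subclone 1 and subclone 2 were harvested in Trizol and libraries were made from total RNA with an Illumina TruSeq kit, 1 per line. The authors deposited RPKM per gene with Entrez number and symbol, and a gene not listed in a library was set to 0. The submitters' processing notes name the build hg19, while aligner, counter and annotation were not given in the sources used here.

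Reads were recovered from the RPKM: a gene's values are whole multiples of what 1 read is worth, 90.23% of 2619 genes with low values fell on the common step, and 99.95% of 11370 genes with a mean of at least 1 RPKM received the smallest whole reads that matched. Reads sharing a divisor are understated, which widens intervals. The recovery was tested on simulated data. Log2 ratios used a pseudocount of 0.1 and folds are ratios of RPKM. Intervals are exact (Clopper-Pearson or Poisson) at 95% and, like the limit of 3 reads for a count of 0, cover counting error only. Calls were 2-fold, 1.5-fold or an interval that leaves out 1, and no test was run between single libraries.

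Order along chromosomes and promoter windows came from RefSeq tables of GRCh38.p14 by gene number, where 16060 of 16149 genes (99.45%) and all 90 members were found. No coordinate of the deposited build was used. Genes were named by a rule: the highest and lowest 2 of each complex, the 6 largest ratios of each comparison, complex II, the paralog sets, core subunits of complex I, genes at 0 in a library, and CYC1, CYCS, PPARGC1A, NRF1 and TFAM. COX7C, ATP5H, UQCR11, UQCRH, NDUFAF1, NDUFAF3, ATP5S and COX5B stand outside it, and 1 gene under it is not reported here. The members and lists were chosen with earlier results of these data known. Alternatives covered pseudocount, scaling, filter, fold and membership. Python 3.11.15, numpy 2.4.6, pandas 2.3.3, scipy 1.17.1 and matplotlib 3.10.9 were used.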

Additional observations from a re-analysis of the deposited data

How the results depend on the processing

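No paired analysis was possible because a single library stands for each line, and no replicate could be left out. Of the values of groups and shares under other settings, 312 stayed within a band and 15 moved. The band was 1.5 times the reported count for counts of genes, and the counting interval for shares. For medians it was the median of the limits of single genes, which reflects the error of 1 gene and not of a median. A median could thus change sign and still count as having stayed. No gene past 2-fold changed sign. Medians near 0 did: for subclone 1 over the parent, division by ACTB gave -0.07 for the 85 genes, -0.08 for complex I, -0.01 for complexes II and IV and -0.07 for complex V, and division by GAPDH gave -0.01 for complex I. With division by ACTB, 1 gene (NDUFAF4) was past 2-fold below the parent in subclone 1. Without a filter on the mean RPKM, 3 genes were past 2-fold above the parent in subclone 1 and 2 in subclone 2, and 1 was past 2-fold below subclone 1 in subclone 2, because genes with 1 to 4 reads then enter. At 1.5-fold, 2 genes stood below the parent in subclone 1, 2 above it and 1 below it in subclone 2, and 3 above and 2 below subclone 1 in subclone 2. Counting subunits only, the share of the listed RPKM was 1.56, 1.65 and 1.74% in the parent, subclone 1 and subclone 2, and without the 10 highest genes in the denominator it was 1.78, 1.88 and 1.96%. Division by ACTB moved the median log2 ratio of all genes to -0.13 for subclone 1 over the parent and to 0.16 between the subclones, and division by GAPDH moved the latter to 0.15. Relative to that median the genes stood 0.05 to 0.06 higher in subclone 1 against the parent, and 0.12 higher in subclone 2, under every scaling. A scaling multiplies all genes of a library by the same factor, so it could hardly change this difference, which is therefore no check. The share of higher genes among all genes past 2-fold went from 72.9 to 57.8% with ACTB for subclone 1 over the parent, and from 50.5 to 64.0% with ACTB and 62.6% with GAPDH between the subclones. Without the 6 genes on chromosome 2, a setting chosen after seeing the data, the genes stood 0.14 above all genes in subclone 2 over the parent. Depth limits genes such as ATP5S (20 to 27 reads), whose fold of 0.704 in subclone 2 had an interval of 0.374 to 1.30.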
